A study of Mus musculus with 10 samples.

Results

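Retinoic acid is a small lipid signal that cells make from vitamin A. Carrier proteins hold it inside the cell, cytochrome enzymes of the Cyp26 family break it down, and nuclear receptors of the Rar and Rxr families pair up on DNA and switch their target genes in response to it. In the embryonic forebrain the meninges, the connective tissue sheath of the brain, are a known source of retinoic acid, and without their ligand the receptors hold co-repressors on DNA. The account here covers 9 genes of this system in the cortical midline of mouse embryos: Aldh1a2, Cyp26b1, Crabp1, Crabp2, Rara, Rarb, Rarg, Rxra and Rxrb. They were taken by symbol, and all 9 are among the 16338 genes of the RNA table. Of the 6995 listed Rcor2 peaks, 3 are named for members of the group.

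All embryos were of the C57/Bl6 strain at embryonic day 14.5. The RNA comparison sets 2 control libraries, from embryos with floxed Rcor2 alleles (Rcor2f/f), against 2 libraries of the conditional knockout (cKO), which has EMX1-iCRE on top of the same floxed alleles (Rcor2f/f/EMX1-iCRE). Emx1 drives Cre in progenitors of the dorsal telencephalon and their descendants, so meninges, vessels, blood and ventrally born neurons in the same dissected tissue lie outside its main lineage. The chromatin immunoprecipitation (ChIP-seq) libraries came from wild-type midline: 2 with an antibody to Rcor2, a co-repressor of the CoREST family, 2 with control IgG and 2 of input chromatin. The labels do not say whether tissue was pooled or which embryos were littermates, so each p-value measures only the spread between these libraries.

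The RNA libraries held 27674987 to 30270598 recovered reads, with 4.41 to 4.59% of them in the top 10 genes. The cKO replicate 1 library stood apart in markers of meninges and fibroblasts: all 18 markers of that list had their highest value there. Their summed normalized counts were 3566 and 3323 in the controls, 12245 in the first cKO library and 3833 in the other. Without the collagen genes Col1a1, Col1a2 and Col3a1 the sums were 2564, 2544, 4865 and 2562. The deleted gene, Rcor2, was at 7901 and 7257 normalized counts in the controls, against 6363 and 6840.2 in the cKO, a log2 change of -0.20 (SE 0.0574) that did not pass (limma adjusted p 0.0541). This checks the labels weakly: the value is 1 per gene, and which exons are floxed is not given here.

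Crabp2 showed the clearest difference of the group, and Cyp26b1, Crabp1 and Rarg were also higher in the cKO. These 4 of the 9 members passed the test across all genes (limma adjusted p under 0.05), all upward, and 5 did not pass. Across all 14324 tested genes, 14.5% passed, 6.16% upward and 8.29% downward. The members were picked by name but selected on the differences between these cKO and control libraries, so their counts and changes are a description, without p-values, and nothing is read from the share that passed. In bulk tissue, more cells of a type and more RNA per cell cannot be told apart. All changes are on the log2(normalized count + 1) scale, with the standard error (SE) of the fit.

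**Figure D1:**
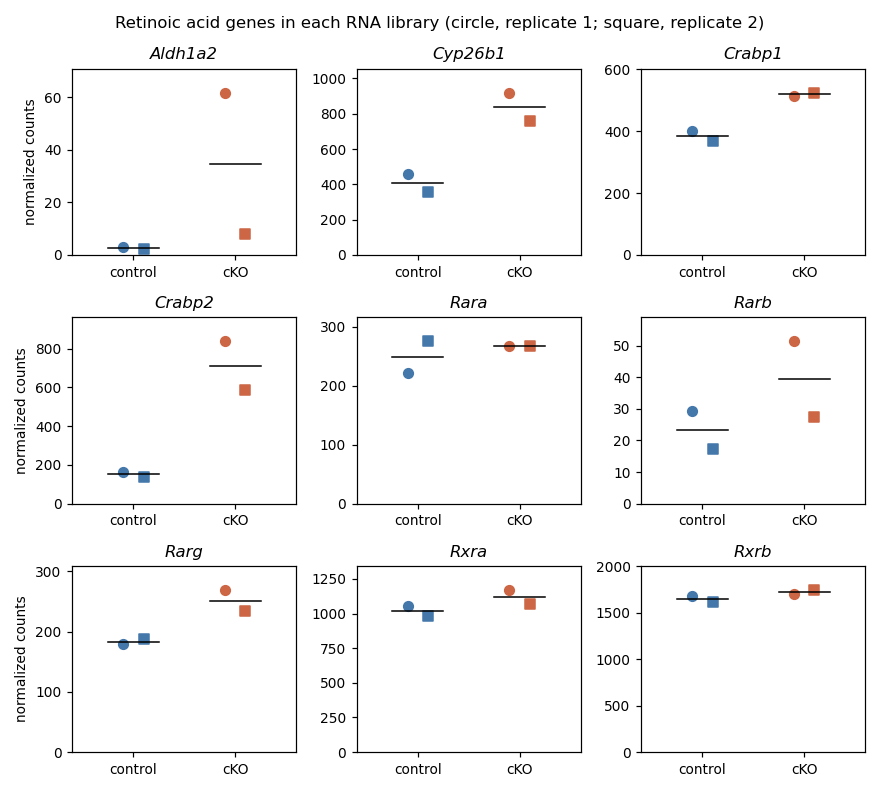
Normalized counts of the 9 retinoic acid genes (y axes, each from 0) in the 2 control and 2 cKO libraries; circles are replicate 1, squares replicate 2 and black lines the group means. Crabp2 sits at 139 to 165 in the controls and 584 to 837 in the cKO, whereas the Aldh1a2 mean in the cKO rests on the value of 61.7 in replicate 1.

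The carriers come first, because the group's leading change lies there. Crabp2 (mm10 chromosome 3, 87948693 to 87953372) encodes a cellular retinoic acid binding protein that hands the ligand to receptors in the nucleus. It had 165 and 139 normalized counts in the controls, against 837 and 584 in the cKO. Both cKO libraries lay far above both controls. The means were 152 ± 17.9 and 711 ± 179 (SD, n = 2 each), a ratio of 4.67, and the log2 change was 2.20 (SE 0.169), which ranked 14 among the 14324 tested genes. The authors' deposited table gives Crabp2 a log2 change of 2.235 (SE 0.196).

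Crabp2 is also known from meningeal cells, so the markers of that tissue belong beside it. Against the control mean, Crabp2 was higher by 2.46 in cKO replicate 1 and by 1.94 in cKO replicate 2 on the log2 scale. In cKO replicate 2 the summed meninges markers were 3833, near the 3323 to 3566 of the controls, and the meningeal transporter gene Slc6a13 was at 3.91 normalized counts, against 2.93 and 3.24 in the controls. Of the 18 markers, 9 were above both controls in that library. Among them were Col1a1 (611 against 355 and 258), Col1a2 (378 against 314 and 213), Dcn (411 against 285 and 332) and Ptgds (43.1 against 20.5 and 32.4). Some were barely above, such as Foxc2 (0.979 against 0.975 and 0). Others of the 18 were below both controls, among them Col3a1 (282 against 334 and 308) and Tbx18 (18.6 against 29.3 and 32.4). The median log2 difference of the tested markers in that library was -0.03. Without cKO replicate 1 the log2 change of Crabp2 was 1.94. The part of meningeal tissue in the Crabp2 value was not tested.

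Crabp1 (chromosome 9, 54764748 to 54773110) encodes the other carrier of the family, which holds retinoic acid in the cytoplasm. Its normalized counts were 399.8 and 369 in the controls, against 515 and 524 in the cKO. The groups did not overlap, and the cKO libraries lay closer together than the controls. The log2 change was 0.44 (SE 0.0876), with 0.42 and 0.45 in cKO replicates 1 and 2. Crabp1 did not pass without control replicate 1 (log2 0.49) or without control replicate 2 (log2 0.38).

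Breakdown of the ligand was represented by Cyp26b1 (chromosome 6, 84571414 to 84593908), an enzyme that clears retinoic acid. Its normalized counts were 461 and 356 in the controls, against 918 and 758 in the cKO. Each cKO library exceeded the higher control by more than the controls differed. The means were 408 ± 74.7 and 838 ± 114 (SD, n = 2 each), a ratio of 2.05, with a log2 change of 1.04 (SE 0.137). Under the 13 alternatives that were run, the log2 changes were 0.85 to 1.23 for Cyp26b1 and 1.94 to 2.46 for Crabp2. The alternatives refit the same libraries on which the members were selected, so these ranges are a description and not separate support.

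Synthesis was represented by Aldh1a2 (chromosome 9, 71215789 to 71296243), the main enzyme that makes retinoic acid in the embryo and a marker of meninges. It was scarce: 3 and 2 recovered reads in the controls, against 60 and 8 in the cKO, or 2.93, 2.16, 61.7 and 7.83 normalized counts. Only cKO replicate 1 carried it at an appreciable level, and that library alone lifted the gene over the minimum mean of 10 normalized counts for testing. The fitted log2 change was 2.74 (SE 0.82) and did not pass. It depended on the pseudocount, at 2.91 with 0.5 and 1.96 with 5. Without cKO replicate 1 it was 1.33 and did not pass, and without cKO replicate 2 it was 4.15 and passed. The meninges markers were also highest in cKO replicate 1: Slc6a13 was at 109 normalized counts in cKO replicate 1 and 2.93 to 3.91 in the other libraries, and Col3a1 at 2842 against 282 to 334. Their part in the Aldh1a2 value was not tested.

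**Figure D2:**
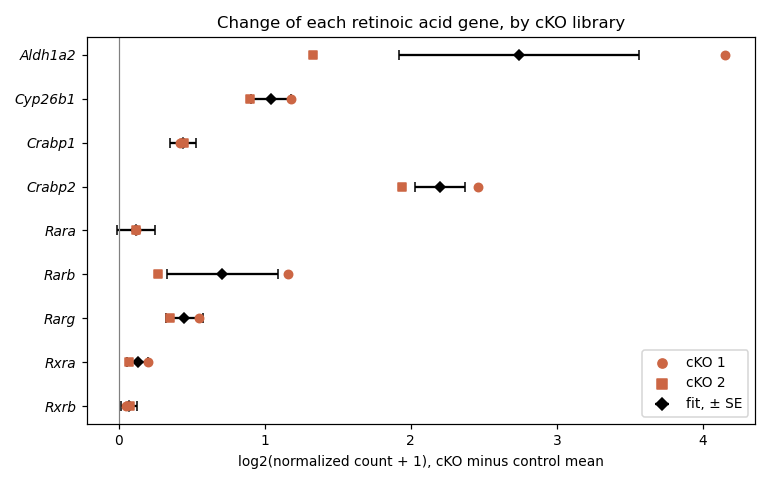
Difference from the control mean on the log2(normalized count + 1) scale (x axis) for each retinoic acid gene; circles are cKO replicate 1, squares cKO replicate 2, and diamonds with bars the fitted change ± SE. Aldh1a2 and Rarb lie far apart in the 2 cKO libraries (4.15 and 1.33, 1.16 and 0.27), whereas Crabp1 has 0.42 and 0.45.

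Among the retinoic acid receptors, Rarg differed most clearly. Rarg (chromosome 15, 102234938 to 102257522) had 179 and 188 normalized counts in the controls, against 269 and 234 in the cKO. The groups did not overlap, and the controls lay close together. The log2 change was 0.45 (SE 0.124). This call was close to the threshold: Rarg did not pass without a filter on low values, after quantile normalization, with DESeq2 or with a replicate block. It also missed the threshold with control replicate 1, control replicate 2 or cKO replicate 1 left out, with log2 changes of 0.41, 0.48 and 0.35.

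Rara (chromosome 11, 98927800 to 98974942), the receptor with broad expression, had 221 and 275 normalized counts in the controls, against 268 and 268 in the cKO. The cKO values lay between those of the controls, and the log2 change of 0.12 (SE 0.129) did not pass. Rarb (chromosome 14, 16430839 to 17082331) is itself a known target of retinoic acid. It was low, with 29.3 and 17.3 normalized counts in the controls, against 51.4 and 27.4 in the cKO, from 16 to 50 recovered reads. The groups overlapped, since cKO replicate 2 lay below control replicate 1. The log2 change of 0.71 (SE 0.382) did not pass, and it was 1.16 without cKO replicate 2, where it passed, and 0.27 without cKO replicate 1.

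The retinoid X receptors, which pair with Rar proteins and with many other nuclear receptors, had small differences that did not pass. Rxra (chromosome 2, 27676445 to 27763319) had 1055 and 985 normalized counts in the controls, against 1169 and 1071 in the cKO, a log2 change of 0.13 (SE 0.0709). Rxrb (chromosome 17, 34031812 to 34038403) had 1679 and 1614 in the controls, against 1706 and 1744 in the cKO, a log2 change of 0.07 (SE 0.0534). Both sets of values were higher in the cKO without overlap, and neither gene passed under any alternative. Groups that do not overlap were common: 27.7% of tested genes were higher in both cKO libraries than in both controls, and 61.0% did not overlap in either direction. Of the 9 members, 7 were higher without overlap. Levels were not compared between genes, because transcript lengths were not used here.

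The genes whose 4 log2 values, centred on their mean, lay nearest to those of Crabp2 among 12456 others with a mean of at least 50 were Fndc3c1, Slc5a7, Ucp2, Dennd1c and Robo3. Their Euclidean distances from Crabp2 were 0.47, 0.48, 0.52, 0.62 and 0.63 over the 4 libraries. Fndc3c1, the nearest, had 29.3 and 35.7 normalized counts in the controls, against 171 and 98.8 in the cKO. Nearest to Rarb were P2rx7, Hspb8 and Cldn9, at distances of 0.12, 0.14 and 0.25. Hspb8, a small heat shock protein gene, had 584 and 329 normalized counts in the controls, against 903 and 545 in the cKO, so here too 1 library of each genotype was high. With 4 libraries these likenesses are a description only.

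The rest of the pathway was read from 5 lists, of which most tested genes did not pass. For vitamin A uptake and retinoic acid synthesis, 2 of 11 tested genes rose, 0 fell and 9 missed the threshold, and the median log2 change was 0.00 beside -0.01 over all tested genes. Dhrs4, a short-chain dehydrogenase that acts on retinoids, went from 829 and 724 to 1037 and 1033 (log2 0.42, SE 0.0788, limma adjusted p 0.0131). It missed the threshold without control replicate 2 (log2 0.32). Stra6, the membrane receptor for retinol uptake, had 86.8 and 80.0 in the controls, against 155 and 109.6 in the cKO, a log2 change of 0.64 (SE 0.198) that did not pass (limma adjusted p 0.0662); it passed with a replicate block and without cKO replicate 2 (log2 0.89). Rdh10, which carries out the oxidation before Aldh1a2, had a log2 change of 0.07 (SE 0.0998) and did not pass.

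The list for breakdown and for other lipid carriers had 4 tested genes: Fabp3, Fabp5, Fabp7 and Rlbp1. All are carriers, so the list says nothing about breakdown enzymes. Of these 4 genes, 0 rose, 1 fell and 3 missed the threshold, and the median was -0.27. The gene that fell was Fabp3, a fatty acid carrier, from 135 and 134 to 76.1 and 94.9 normalized counts (log2 -0.65, SE 0.169, limma adjusted p 0.0379). It missed the threshold without control replicate 1 (log2 -0.65), control replicate 2 (log2 -0.66) or cKO replicate 1 (log2 -0.50), and after quantile normalization or with DESeq2. Fabp5, which can carry retinoic acid as well, went from 4489.8 and 3133 to 2401 and 2903 and did not pass (log2 -0.51, SE 0.152, limma adjusted p 0.0602). It passed with a replicate block, without control replicate 2 (log2 -0.77) and without cKO replicate 2 (log2 -0.64). The other retinoic acid hydroxylase genes, Cyp26a1 and Cyp26c1, were listed but had no values here.

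Among 14 tested genes for Rxrg and for receptors that pair with Rxr proteins or compete with them on DNA, 1 rose, 1 fell and 12 missed the threshold, and the median was 0.07. Nr4a2, an orphan receptor that pairs with Rxr, went from 538 and 482 to 902 and 756 normalized counts (log2 0.70, SE 0.102, limma adjusted p 0.00706). The thyroid hormone receptor gene Thra went from 16733 and 16058 to 12241 and 13833 (log2 -0.33, SE 0.0621, limma adjusted p 0.0125). Nr4a2 did not pass without control replicate 2 (log2 0.62), and Thra did not pass without control replicate 1 (log2 -0.30) or control replicate 2 (log2 -0.36). Of 18 co-regulators, 1 rose, 0 fell and 17 missed the threshold, and the median was 0.07. Tbl1x, a part of the Ncor complex that silent receptors hold, rose by 0.23 (SE 0.065, limma adjusted p 0.0474), and it did not pass without control replicate 1 (log2 0.19), control replicate 2 (log2 0.28) or cKO replicate 1 (log2 0.15), nor with no filter, quantile normalization or a replicate block.

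Known targets of retinoic acid differed in both directions. Of 21 listed targets, 9 had no values here. Rarb, another known target, was counted among the members and not in this list. Of 10 tested, 1 rose, 1 fell and 8 missed the threshold, and the median was -0.02. Meis2, a homeobox gene, went from 7847 and 8018 to 6674 and 6944 normalized counts (log2 -0.22, SE 0.0444, limma adjusted p 0.0161). It missed the threshold without control replicate 1 (log2 -0.24) or control replicate 2 (log2 -0.21). Tgm2, a transglutaminase gene, had 30.2 and 46.5 in the controls, against 151 and 53.8 in the cKO, so cKO replicate 1 stood alone, and it did not pass (log2 1.25, SE 0.438, limma adjusted p 0.0957). It passed with DESeq2 (log2 1.44) and without cKO replicate 2 (log2 1.98). Dhrs3, an enzyme that turns retinal back to retinol, had a log2 change of -0.19 (SE 0.153) and did not pass.

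**Figure D3:**
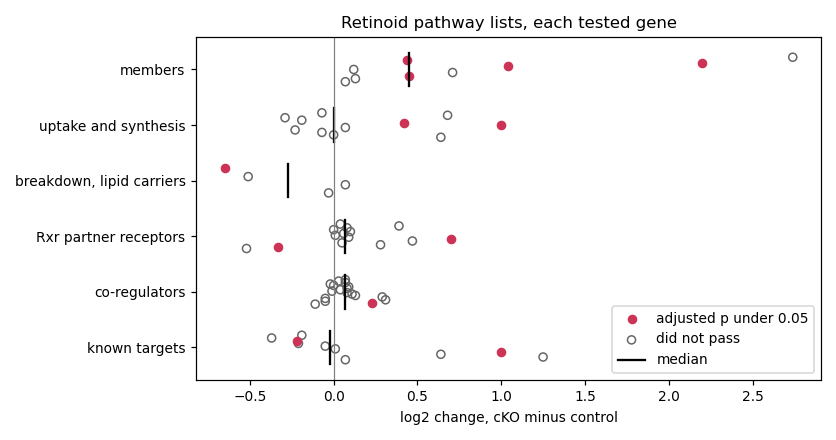
Log2 change, cKO minus control (x axis), of each tested gene in the member group and the 5 pathway lists; filled points passed the limma test, open points did not, and bars are list medians. Most open points lie near 0, and the medians of the 5 lists run from -0.27 to 0.07.

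Some markers of other cell types also differed between these libraries. Of 16 tested markers of meninges and fibroblasts, 2 rose, 0 fell and 14 missed the threshold, and the median was 0.58. By library it was 1.19 for cKO replicate 1 but -0.03 for cKO replicate 2. Without cKO replicate 2, 13 markers passed, all upward; without cKO replicate 1, 1 passed, and without either control 0 did. Col1a1 rose from 355 and 258 to 2442 and 611 normalized counts (log2 2.01, SE 0.511, limma adjusted p 0.0354), and Dcn from 285 and 332 to 694 and 411 (log2 0.80, SE 0.212, limma adjusted p 0.0419). Neither passed with either control left out (log2 1.78 to 2.24 and 0.69 to 0.91), after quantile normalization or with DESeq2. Dcn also missed the threshold with no filter, with edgeR and without cKO replicate 1 (log2 0.42). Foxc2, a meningeal transcription factor gene, was at 0.975, 0 and 0.979 normalized counts in controls 1 and 2 and cKO replicate 2, and at 26.7 in cKO replicate 1.

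Of 15 tested markers of choroid plexus and cortical hem, the signalling edge of the medial cortex, 5 rose, 0 fell and 10 did not pass. By library, the median was 0.31 and 0.40 in the cKO, and their summed normalized counts were 8431 and 7793 in the controls, against 10186 and 9951 in the cKO. Bmp7 went from 327 and 312 to 624 and 476 (log2 0.77, SE 0.13, limma adjusted p 0.00946), Rspo1 from 481 and 458 to 634 and 671 (log2 0.47, SE 0.0799, limma adjusted p 0.00941) and Wnt8b from 899 and 824 to 1123 and 1199 (log2 0.43, SE 0.0715, limma adjusted p 0.00901). All 3 missed the threshold with either control left out (log2 0.74 to 0.80, 0.44 to 0.51 and 0.37 to 0.49), and the list then had 0 genes that passed. Ttr, the carrier protein gene that marks choroid plexus, had 19.5 and 14.1 normalized counts in the controls, against 9.25 and 5.87 in the cKO (log2 -1.07, SE 0.417, limma adjusted p 0.128). Bmp4, a signal of the hem, had 19.5 and 17.3 against 10.3 and 7.83 (log2 -0.96, SE 0.368, limma adjusted p 0.122). Ttr and Bmp4 were lower in each cKO library and did not pass. Folr1 and Otx2, of the same list, went the other way and were among the 5 that rose. Folr1 had 28.3 and 25.9 in the controls, against 58.6 and 58.7 in the cKO. Otx2 had 191 and 214, against 297 and 297. By sign, 12 of the 15 tested markers were higher in the cKO and 3 were lower. Crabp2, Cyp26b1 and Crabp1 were higher in the same 2 cKO libraries. The part of these markers' tissue in the member results was not tested.

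**Figure D4:**
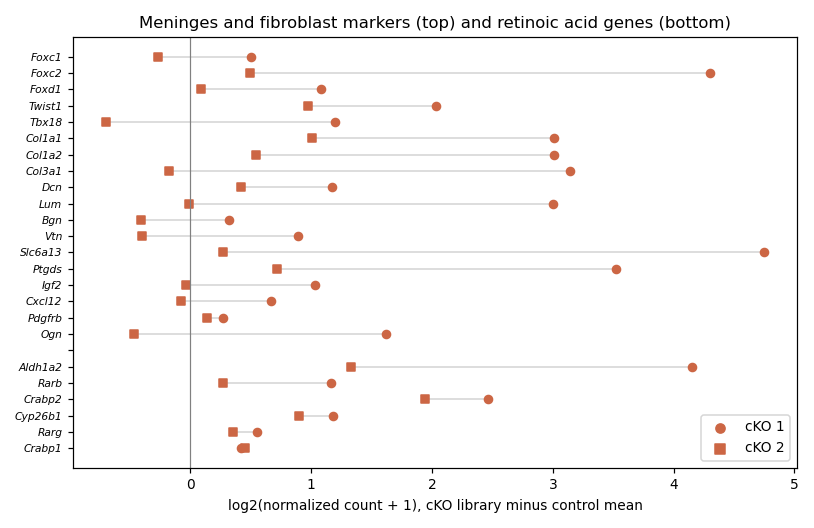
Difference of each cKO library from the control mean on the log2(normalized count + 1) scale (x axis) for the 18 meninges and fibroblast markers (top) and 6 retinoic acid genes (bottom); circles are cKO replicate 1 and squares cKO replicate 2. Each marker circle lies to the right of its square, the squares lie on both sides of 0 and reach 1.01 at Col1a1, and for Crabp2 the square is at 1.94 and the circle at 2.46.

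The ChIP-seq table named 3 of the 9 members for a peak: Rarb, Rxra and Crabp1, with 1 peak each. Across the tested genes, 20.9% were named for at least 1 peak, so a share of this size among 9 genes is not a result about them. Peaks were called on Rcor2 against IgG, so a height above IgG is what chose them, and heights are given without a test. Crabp2, Cyp26b1 and Rarg, which rose, were not named for a peak. The listed peak nearest to the Crabp2 span lay 42.6 kb away and was named for Hdgf, and those nearest to the Cyp26b1 and Rarg spans lay 436.0 and 133.8 kb away.

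The Rarb peak lay over a promoter (chr14:16575585-16575864). Its summit was 282 bases before the start of transcription that RefSeq gives within the long Rarb span, at position 16575476 on the minus strand. Peak heights were 13 and 18 with the Rcor2 antibody, 5 and 5 with IgG and 27 and 15 in input. Rcor2 exceeded IgG in both replicates, but it was below input in replicate 1 and above it in replicate 2. The fold enrichment over IgG was 4.0, the authors' value, which ranked 3141 among 6995 peaks. The mean log2 height difference to input was -0.39 (combined SD 0.667, n = 2 each), at percentile 11.4 of all peaks, whose median was 0.39.

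Of the members that rose, Crabp2 had no entry in the RefSeq promoter table, and Rarg, with 2 RefSeq starts, is not shown. The 250 bases before the start are shown for Rarb, because a peak overlaps them, and for Cyp26b1 and Crabp1, which rose. They are read 5′ to 3′ on the gene's strand (from RefSeq on GRCm38.p6, which mm10 corresponds to), and capitals mark a match to the DR5 retinoic acid response element, 2 receptor repeat units in tandem with a spacer of 5 bases.
Rarb, chr14:16575477-16575726, minus strand: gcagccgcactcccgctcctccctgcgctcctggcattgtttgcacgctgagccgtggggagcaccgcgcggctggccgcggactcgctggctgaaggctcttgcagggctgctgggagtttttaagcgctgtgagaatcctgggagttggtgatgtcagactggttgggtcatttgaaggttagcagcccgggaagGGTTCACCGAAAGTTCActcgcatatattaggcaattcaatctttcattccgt
Cyp26b1, chr6:84593811-84594060, minus strand: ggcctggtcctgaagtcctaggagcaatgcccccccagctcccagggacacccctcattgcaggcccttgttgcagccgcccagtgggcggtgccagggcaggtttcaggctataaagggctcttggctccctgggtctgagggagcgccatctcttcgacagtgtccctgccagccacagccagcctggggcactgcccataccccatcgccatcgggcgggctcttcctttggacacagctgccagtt
Crabp1, chr9:54764498-54764747, plus strand: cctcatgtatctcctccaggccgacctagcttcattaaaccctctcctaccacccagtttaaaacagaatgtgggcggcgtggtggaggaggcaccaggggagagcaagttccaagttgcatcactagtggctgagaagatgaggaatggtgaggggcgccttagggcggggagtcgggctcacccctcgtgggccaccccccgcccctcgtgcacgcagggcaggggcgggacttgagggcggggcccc
The Rarb sequence holds the DR5 element from 53 to 37 bases before the start (chr14:16575513-16575529), and the other sequences hold none.

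The DR5 element is rare in windows of this kind. It was found, on either strand, in 0.0974% of 32851 RefSeq windows that run from 250 bases before to 50 after a start, and in 1 of the 14 windows of 8 members. Elements with the same repeat unit and a spacer of 1 base (DR1) or 2 bases (DR2) were in 0 of the 14 windows, and in 0.222 and 0.268% of all windows. The single unit AGGTCA was in 3 of the 14 and in 16.3% of all windows, and AGTTCA, which the DR5 element contains, in 2 of the 14 and in 14.0% of all windows. For scale, the frequent motif CANNTG was in 10 of the 14 and in 72.3% of all windows. The DR5 match ended 56 bases from the near edge of the Rarb peak and 229 bases from its summit, so the called interval covered 142 bases of the promoter window and not the match itself. A match is a stretch of letters and does not show that a receptor was bound there.

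The Rxra peak lay in the gene body (chr2:27758197-27758381), 49007 bases from the nearer RefSeq start. Its heights were 10 and 16 with the Rcor2 antibody, 4 and 2 with IgG and 23 and 13 in input. As at Rarb, the replicates disagreed on whether Rcor2 exceeded input, with a mean log2 difference of -0.44 (combined SD 0.73, n = 2 each) at percentile 10.3 of all peaks. The Crabp1 peak (chr9:54776238-54776396), which the authors classed as distal, began 3128 bases beyond the end of the gene. Its heights were 8 and 18 with the Rcor2 antibody, 2 and 6 with IgG and 7 and 8 in input. Rcor2 was above input in both replicates, by 1 unit of height in replicate 1, with a mean log2 difference of 0.65 (combined SD 0.804, n = 2 each) at percentile 66.3. For all 3 peaks the difference between Rcor2 and input was smaller than its combined SD. No library totals were analysed here, so heights of different libraries carry their unequal depth.

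**Figure D5:**
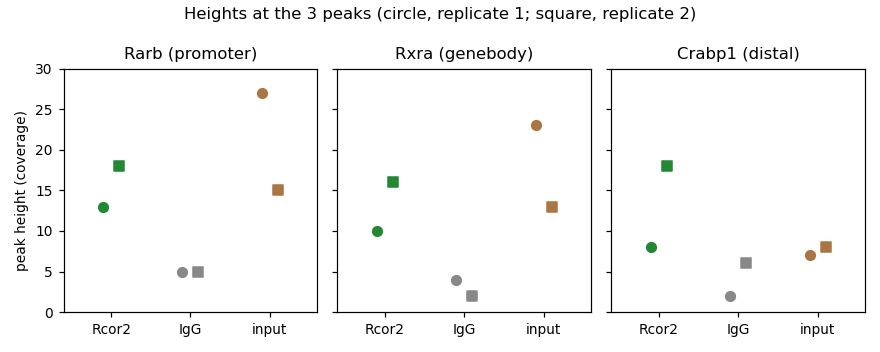
Peak height, as coverage (y axis), at the peaks named for Rarb, Rxra and Crabp1 in the 2 Rcor2, 2 IgG and 2 input libraries; circles are replicate 1 and squares replicate 2. IgG heights lie at 2 to 6, and at Rarb and Rxra the input heights of 27 and 23 in replicate 1 are the highest values.

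Peaks were also named for other genes of the pathway. Of the 18 tested co-regulators 8 were named for a peak, of the 11 synthesis genes 3 and of the 10 known targets 5. For the 14 partner receptors the number was 1, and for the 4 lipid carrier genes it was 1. The promoter peak of Rdh10 (chr1:16104485-16104648), which the authors named jointly for Rpl7, had heights of 15 and 19 with the Rcor2 antibody, 3 and 2 with IgG and 9 and 12 in input. There Rcor2 exceeded input in both replicates, and the Rdh10 transcript had 319.9 and 298 normalized counts in the controls, against 317 and 331 in the cKO. The Dhrs4 promoter peak (chr14:55479035-55479560) had Rcor2 heights of 12 and 40, IgG heights of 5 and 3 and input heights of 16 and 21, with a mean log2 difference of 0.26 between Rcor2 and input. Both peaks were chosen for description after their values were seen.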

How the data were processed

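The RNA table gives a signal per gene and library, which the authors deposited as normalized counts; each column's values are multiples of what 1 read is worth (100% of values, tolerance 1e-04), so whole reads were recovered. The authors' deposited columns of log2 fold change, standard error, test score and p-value sit beside them, with the header names of a DESeq2 table. Per the file headers, the peak table gives a pileup and a height (signal) per library, a fold enrichment (ratio) over IgG, and, by place and range, −log10 p and q values; classes and gene names are the authors'. Names joined by a slash were split. HISAT2 2.1.0, Trim Galore and mm10 are named in the submitters' processing notes without a role; the counter, annotation, strand use and peak settings are not stated in those sources.

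limma-trend (limma 3.58.1, R 4.3.3) was fitted to log2(normalized count + 1) over 14324 genes (mean normalized count 10 or more), two-sided, with Benjamini-Hochberg adjustment over all of them and a threshold of 0.05; 2014 genes were left out. The fit had 2 residual and 6.21 prior degrees of freedom; the smallest exact permutation p for 2 against 2 libraries is 0.333. Count tests on recovered reads with edgeR 4.0.16 and DESeq2 1.42.0 were alternatives and called 1742 and 1574 genes. Height ratios had 0.5 added and use mean log2 heights; the combined SD is the root of the summed group variances. One added alternative, chosen after seeing the data, left 3 collagen genes out of the meninges sum. The scripts were tested on simulated data.

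The members and lists were chosen with earlier results of these data known. Named genes are Rcor2, the members, 5 genes nearest to Crabp2 and 3 nearest to Rarb. Up to 4 genes per pathway list and 3 per marker list that passed were also named, by smallest adjusted p (else the 2 most abundant). Stra6, Rdh10, Fabp5, Tgm2, Dhrs3, Slc6a13, Col3a1, Col1a2, Ptgds, Ttr, Bmp4, Foxc2, Folr1, Otx2 and Tbx18 were added after their values were seen. Some genes that this rule names are not reported here. The 5 pathway lists and 9 marker lists cover retinol uptake and synthesis, breakdown and carriers, partner receptors, co-regulators, targets, meninges, choroid plexus and hem, Cajal-Retzius cells, ventral telencephalon, endothelium, blood, microglia, dorsal progenitors and projection neurons. Figures were drawn with matplotlib 3.10.9.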

Additional observations from a re-analysis of the deposited data

How the results depend on the processing

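The alternatives run kept the sign of the named genes, with the exceptions below. Foxc2, Col1a2, Ptgds, Folr1, Otx2 and Tbx18, given as levels alone, were not run. Without control replicate 1 the log2 changes were -0.03 for Rara, -0.02 for Kdr and 0.04 for Csf1r. Without cKO replicate 1 those of Kdr and Col3a1 were -0.0037 and -0.18 (Col3a1 3.14 without cKO replicate 2). With control replicate 2 left out instead, Rara was at 0.28 and Csf1r at -0.17. Leaving out each library in turn gave 140 to 3453 genes called in all (2070 with all 4 libraries: 172 and 140 with control replicate 1 or 2 left out, 3453 without cKO replicate 2), 2 to 6 members (4 with all libraries: 2 without either control) and 1 to 14 pathway genes (7 with all libraries). Where a group kept 1 library, that library is assumed to vary like the other group's. After quantile normalization 4 pathway genes passed. With a replicate block, from the numbers in the titles, 2076 genes, 4 members and 9 pathway genes passed, Aldh1a2 among the members in place of Rarg; deviations of libraries with the same number correlated at 0.242 over tested genes, and with 2 pairs this does not show pairing. TMM scaling and quantile normalization moved the median log2 change by 0.015 and 0.013.

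With each library divided by its median height over all peaks, the log2 difference of Rcor2 and IgG was -0.55 at the Rarb peak, -0.02 at Rxra and -0.38 at Crabp1, which by construction is relative to the median peak. Of the 3 member genes with a peak, 1 (Rarb) remained at or above the median fold enrichment. The level per kilobase was not run, since only gene spans were given. Aldh1a2 and Rarb rest on few reads, 2 to 60 and 16 to 50 a library, and also differed between the cKO libraries by ratios of 7.88 and 1.88; these were not separated.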

Other observations

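Neuronal and progenitor markers moved in opposite directions in the same libraries. Of 11 tested markers of cortical projection neurons, 10 fell, 0 rose and 1 missed the threshold, and the median log2 change was -0.42. Mapt and Stmn2, genes of the neuronal cytoskeleton, fell by 0.75 and 0.62. Of 12 markers of dorsal telencephalic progenitors, 7 rose, 0 fell and 5 missed the threshold, and the median was 0.20. Dmrta2 rose by 0.43, Hes5 by 0.31 and Sox2 by 0.25. With either control left out, 0 of the progenitor markers and 3 of the projection neuron markers passed.

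Of 11 tested ventral telencephalic and striatal markers, 1 rose, 3 fell and 7 did not pass: Lhx6 fell by 0.94 and Gad1 by 0.78. With either control left out 1 of them passed, and Gad1 did not (log2 -0.65 to -0.90). Of 4 tested red blood cell genes, 2 fell and 2 did not pass, among them Alas2 (log2 -1.26, SE 0.167, limma adjusted p 0.00589) and Slc4a1 (log2 -0.95, SE 0.221, limma adjusted p 0.0263). With control replicate 1 left out 1 of the blood genes passed, with control replicate 2 left out 0, and all 4 passed when cKO replicate 2 was omitted. Of 9 Cajal-Retzius markers, Ndnf fell by 0.79 (SE 0.122, limma adjusted p 0.00778) and the remaining 8 missed the threshold; Ndnf did not pass without control replicate 2 (log2 -0.68), and 3 markers passed without cKO replicate 2. Of 8 endothelial and 8 microglial markers, 0 passed with limma, edgeR or DESeq2, and 2 and 0 had an unadjusted limma p under 0.05; without cKO replicate 2, 1 endothelial marker passed. Kdr and Pecam1 had log2 changes of 0.01 and -0.21, and Csf1r and Cx3cr1 of -0.07 and -0.17.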
